A study of Homo sapiens and Mus musculus with 16 samples.

Results

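The genes described here encode collagens, laminin chains, integrin subunits, fibronectin and the basement membrane proteins that link them. The measurement is the level of their mRNAs in P-body libraries relative to cytoplasm libraries in 4 cell types. Members were taken by gene symbol: all collagen chains, all laminin chains, all integrin alpha and beta subunits, and FN1, NID1, NID2, HSPG2 and AGRN. The symbols gave 88 of 22286 genes in the human table and 58 of 15881 in the mouse table, with 57 symbols in both. The integrin-binding proteins ITGB1BP1, ITGB1BP2 and ITGB3BP were left out. ITGBL1, an integrin-beta-like secreted protein and no receptor subunit, was kept because its symbol fits. Human members were 11 fibrillar collagens, 12 basement membrane and network collagens, 21 other collagens, 12 laminin chains, 18 integrin alpha subunits, 8 integrin beta subunits, ITGBL1, and 5 genes for fibronectin and the linkers. Single genes entered by symbol and mean CPM, but the set as a whole was chosen by the P-body to cytoplasm ratios of these same libraries, so the counts and medians below describe it and carry no test of the set.

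P-bodies are cytoplasmic condensates of RNA and protein, here sorted as fluorescent particles from lysed cells and sequenced beside an unsorted cytoplasmic aliquot of the same preparation. Per the study's methods that aliquot was taken before sorting, so P-bodies were not removed from it. Ratios compare shares of libraries, not amounts of RNA in the cell. The cell types were HEK293T, a human embryonic kidney line, mouse embryonic stem cells (mESC) of the line KH2 kept in serum with LIF, and liver bud progenitors and day 20 neurons, both derived from UCLA4, a human embryonic stem cell line. Every line, and so every library of either fraction, carried LSM14A fused to GFP. Per the study's methods the fusion came from a lentiviral vector with an EF1a promoter in HEK293T and mESC, and from a construct at the AAVS1 locus in the UCLA4 cells. Each cell type had 2 P-body and 2 cytoplasm libraries and rested on 1 parental line. No label states that libraries of a group came from separate cultures, so p-values measure the spread between these libraries, which may be technical. The HEK293T and mESC libraries were labelled total RNA and the other 8 polyA RNA, so RNA type and cell type cannot be told apart between those pairs.

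The extracellular matrix is a meshwork of secreted proteins that cells build around themselves and hold on to. Collagen chains wind into triple helices, laminins assemble as trimers of an alpha, a beta and a gamma chain, and both form the sheets called basement membranes, where nidogens, perlecan and agrin join the networks. Integrins are paired alpha and beta subunits that span the cell membrane and bind these proteins from the cell side. All of these mRNAs are translated at the endoplasmic reticulum, since their products are secreted or inserted in the membrane.

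Short stretches of coding sequence show how members differ in base composition, which is taken up again with the ratios. Each stretch is 90 bases on hg38, 5′ to 3′, with exons counted in the GENCODE 44 transcript used. The first 3 are from ITGAV (chr2:186625479-186625568, plus strand, exon 4 of 30), LAMC1 (chr1:183103522-183103611, plus strand, exon 2 of 28) and HSPG2 (chr1:21887966-21888055, minus strand, exon 7 of 97). Each was chosen because its share of G or C at the third codon positions is close to that of its whole coding sequence. Capitals mark the third codon bases that are G or C, which number 12 of 30 in ITGAV, 16 in LAMC1 and 23 in HSPG2.
ITGAV: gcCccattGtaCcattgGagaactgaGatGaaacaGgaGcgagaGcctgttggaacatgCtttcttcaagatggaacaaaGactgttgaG
LAMC1: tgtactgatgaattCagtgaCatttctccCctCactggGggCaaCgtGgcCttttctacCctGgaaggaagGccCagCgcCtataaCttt
HSPG2: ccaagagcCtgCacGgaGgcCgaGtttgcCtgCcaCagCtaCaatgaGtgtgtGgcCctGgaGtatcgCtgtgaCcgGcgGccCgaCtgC

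The other two stretches show a repeat and a binding motif. In COL4A2 (chr13:110424734-110424823, plus strand, exon 5 of 48) capitals mark the 10 glycine codons, which recur at regular steps of 3 codons as a triple helix needs, and glycine took 27.6% of all its codons. In FN1 (chr2:215384021-215384110, minus strand, exon 30 of 46) capitals mark the codons for arginine, glycine and aspartate, the motif that integrins of the ITGA5 and ITGAV type bind, and this run occurred 1 time in the FN1 coding sequence.
COL4A2: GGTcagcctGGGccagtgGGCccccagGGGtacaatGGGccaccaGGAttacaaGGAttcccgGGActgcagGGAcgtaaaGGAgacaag
FN1: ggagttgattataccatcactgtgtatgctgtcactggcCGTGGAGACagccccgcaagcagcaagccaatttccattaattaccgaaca

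Libraries held between 6368953 and 17972284 counts, so that 3 counts, taken as the floor of detection, stood for 0.167 to 0.471 CPM. CPM are counts brought to a common library total, here the effective library size of each comparison, and such floors cover counting error only. The 10 neuron markers summed to 9330 to 13300 CPM in neuron libraries and 257 to 316 CPM in liver bud libraries. The 13 liver bud and endoderm markers summed to 521 and 528 CPM in liver bud cytoplasm and to 61.4 and 67.2 CPM in neuron cytoplasm. In P-bodies the same markers lay close, at 279 and 291 CPM in liver bud and 258 and 257 CPM in neurons. HEK293T libraries held 163 to 272 CPM of them, and mESC libraries 411 to 609 CPM of the 10 in the mouse table. Liver bud libraries also held 1560 and 1570 CPM of 10 pluripotency markers in cytoplasm and 3010 and 3070 CPM in P-bodies, so the labelled cells still carried stem cell transcripts. Replicates differed most in neuron P-bodies.

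Summed over members, matrix and integrin mRNAs made up less of the P-body libraries than of the cytoplasm libraries in all 4 cell types, while ITGB1, the beta subunit shared by most integrins, was enriched in each, a direction that turned in HEK293T and mESC with an offset for GC content and length and in mESC under scaling by library size only. The members took 1.22% ± 0.0424 (SD, n = 2) of counts in liver bud cytoplasm and 0.366% ± 0.017 in liver bud P-bodies. In mESC they took 1.11% ± 0.0283 and 0.536% ± 0.00919, in neurons 0.168% ± 0.000707 and 0.112% ± 0.000707, and in HEK293T 0.0728% ± 0.00099 and 0.0499% ± 0.000495. The fractions did not overlap in any cell type. These sums lean on few genes, FN1 foremost, with a mean of 6760 CPM in liver bud cytoplasm and 4800 CPM in mESC cytoplasm. They are shares of raw library totals. Scaled by library size only, the median log2 ratio of all genes was -0.36 in mESC and -0.26 in HEK293T. It was -0.14 in liver bud progenitors and 0.05 in neurons.

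Counted gene by gene, with a floor of 1 CPM averaged over both fractions, liver bud progenitors held 66 members, of which 44 were depleted from P-bodies (66.7%, where 24.6% of all 14455 genes at this level were) and 2 were enriched (3.03%, all genes 32.3%). A gene is called enriched or depleted at an adjusted p under 0.05 in the quasi-likelihood test of edgeR with Benjamini-Hochberg adjustment over the whole table. In HEK293T 22 of 41 were depleted (53.7%, all genes 38%) and 2 enriched (4.88%, all genes 32%). Neurons had 58 members at this level, 19 depleted (32.8%, all genes 21.1%) and 7 enriched (12.1%, all genes 19.9%). In mESC 23 of 36 were depleted (63.9%, all genes 20.2%) and 3 enriched (8.33%, all genes 33.8%). Median log2 ratios of P-body to cytoplasm were -1.07 in liver bud progenitors, -0.81 in HEK293T, -0.62 in mESC and -0.61 in neurons, beside 0.05, -0.13, 0.04 and -0.12 for all genes. Depletion of at least 2-fold was called for 34 members in liver bud progenitors (51.5%, all genes 10.4%), 6 in mESC (16.7%, all genes 2.52%), 15 in HEK293T (36.6%, all genes 20.7%) and 17 in neurons (29.3%, all genes 9.61%). Enriched members were few and their number depended on single libraries. ITGB1 kept its call in neurons and liver bud progenitors whichever library was left out. In neurons the 7 became 2 and 4 without cytoplasm replicates 1 and 2 and 9 without either P-body library. In mESC the 3 became 0 and 1 without P-body replicates 1 and 2, in HEK293T the 2 became 1 when P-body replicate 2 was left out and 3 when cytoplasm replicate 2 was, and in liver bud progenitors the 2 became 1 without P-body replicate 2 or cytoplasm replicate 1.

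Of the 88 human members, 71 reached 1 CPM in at least 1 human cell type and 17 in none, among them the leukocyte integrins ITGB2, ITGAM, ITGAX and ITGAD. No member was at 0 in every library. The members nearest to the floor on its upper side were ITGA7 in HEK293T (1.1 CPM), COL9A1 in liver bud progenitors (1.15), COL7A1 in neurons (1.12) and Itga2 in mESC (1.04). Nearest below it were ITGA9 (0.891 CPM), COL23A1 (0.941), ITGA10 (0.996) and Itga8 (0.81) in the same order.

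Among the 35 members at this level in all 3 human cell types, 12 were depleted in all 3 (34.3%, where 10.6% of 11695 genes were), 7 in exactly 2, 8 in 1 and 8 in none. The 12 were FN1, HSPG2, AGRN, the collagens COL1A1, COL2A1, COL4A1, COL4A2, COL5A1 and COL6A1, the laminin chains LAMA1 and LAMB2, and ITGA3. ITGB1 alone was enriched in all 3 (all genes 15.5%). With mESC added, 24 members were at this level in all 4 cell types, 7 of them depleted in each and 1, ITGB1, enriched in each. The share of all genes over the 4 cell types was not computed, so these counts stand without a background.

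**Figure D1:**
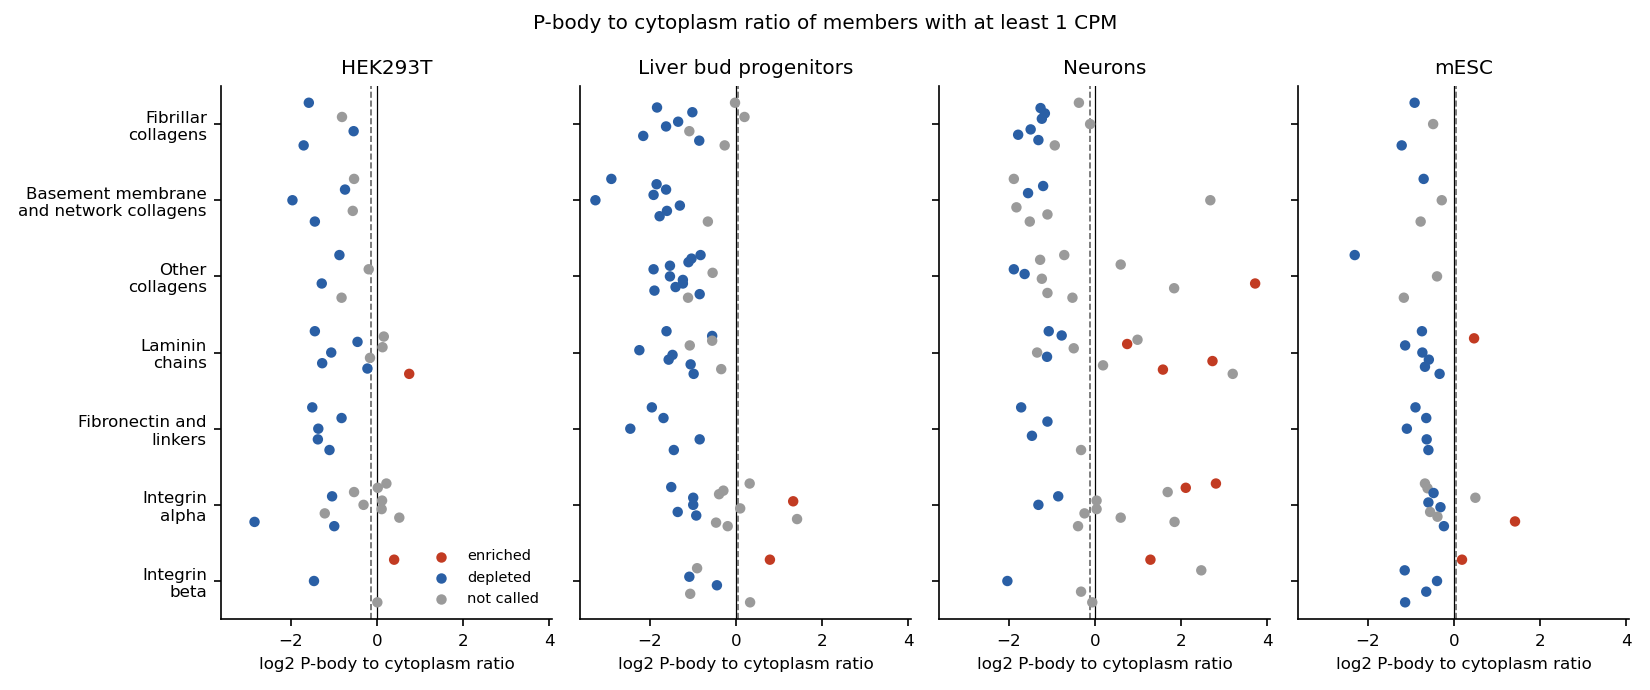
Log2 P-body to cytoplasm ratio (x axis) of each member with at least 1 CPM, in rows by family (y axis) and with a panel for each cell type. Points are genes, blue for depleted, red for enriched and grey for not called, and the dashed line is the median of all genes. ITGBL1 is not drawn. Fibronectin and the linkers lie left of 0 in every panel, while integrin alpha subunits lie on both sides with medians from -0.42 to 0.04.

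Fibronectin and the basement membrane linkers were the most uniform family. All 5 were depleted in HEK293T (all genes 38%), in liver bud progenitors (24.6%) and in mESC (20.2%). In neurons 3 of the 4 above the floor were depleted (all genes 21.1%). FN1 (hg38, chr2:215360440-215436073, minus strand), whose product binds integrins and collagens, was the member of highest level per kilobase of transcript in cytoplasm of liver bud progenitors, at 737 ± 26.4 CPM per kb, and of mESC, at 577 ± 14.3.

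In liver bud progenitors FN1 stood at 2050 and 2180 CPM in P-bodies and at 6590 and 6930 CPM in cytoplasm. The fractions lay far apart with close replicates, a 3.2-fold depletion (log2 ratio -1.68 ± 0.04 SE, edgeR adjusted p = 1.17e-46). Neurons had 156 and 149 CPM of FN1 in P-bodies and 315 and 336 in cytoplasm, 2.14-fold lower in P-bodies (log2 -1.1 ± 0.09, edgeR adjusted p = 1.45e-06). In mESC the values were 3050 and 3110 CPM against 4880 and 4710, a 1.56-fold depletion (log2 -0.64 ± 0.03, edgeR adjusted p = 1.2e-14). HEK293T cells had little FN1, 19.2 and 15.1 CPM in P-bodies and 32.1 and 28.1 in cytoplasm, and it was 1.76-fold depleted there (log2 -0.82 ± 0.14, edgeR adjusted p = 9e-07).

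HSPG2 (chr1:21822244-21937310, minus strand), which encodes the heparan sulfate proteoglycan perlecan, showed the widest gap of the family in liver bud progenitors. Its P-body libraries held 233 and 251 CPM and its cytoplasm libraries 1260 and 1390 CPM, a 5.46-fold depletion (log2 -2.45 ± 0.05, edgeR adjusted p = 2.65e-46). In mESC Hspg2 had 219 and 229 CPM against 471 and 479, 2.12-fold lower in P-bodies (log2 -1.09 ± 0.04, edgeR adjusted p = 2.47e-16). In neurons HSPG2 had 38.9 and 28.6 CPM against 101 and 84.9, 2.75-fold lower (log2 -1.46 ± 0.17, edgeR adjusted p = 2.52e-05), a call that ended when GC content and length were entered as an offset (log2 -0.32, adjusted p = 0.126).

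AGRN (chr1:1020120-1056118, plus strand) encodes agrin, a proteoglycan that organises receptors at nerve to muscle contacts, and it was the member of highest level per kilobase in neuron cytoplasm, at 51.8 ± 6.7 CPM per kb. Neuron P-bodies held 120 and 117 CPM and neuron cytoplasm 423 and 352 CPM. This 3.27-fold gap (log2 -1.71 ± 0.11, edgeR adjusted p = 1.01e-07) was similar in size to the 3.86-fold depletion in liver bud progenitors, where the values were 58.2 and 64.7 against 207 and 268 CPM. In HEK293T AGRN was depleted 2.83-fold and in mESC Agrn 1.85-fold.

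The nidogens NID1 and NID2 tie laminin to collagen IV. NID1 had 31.8 and 27.6 CPM in HEK293T P-bodies and 77.9 and 75.3 in cytoplasm, a 2.58-fold depletion with the smallest p of any member in that line (log2 -1.37 ± 0.1, edgeR adjusted p = 8.8e-19). In liver bud progenitors NID1 was depleted 1.79-fold and NID2 2.71-fold, and in mESC Nid1 1.55-fold and Nid2 1.51-fold. NID1 was the one linker above the floor that was not called in neurons, with 5.85 and 5.54 CPM in P-bodies and 6.23 and 8 in cytoplasm (log2 -0.32 ± 0.4).

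**Figure D2:**
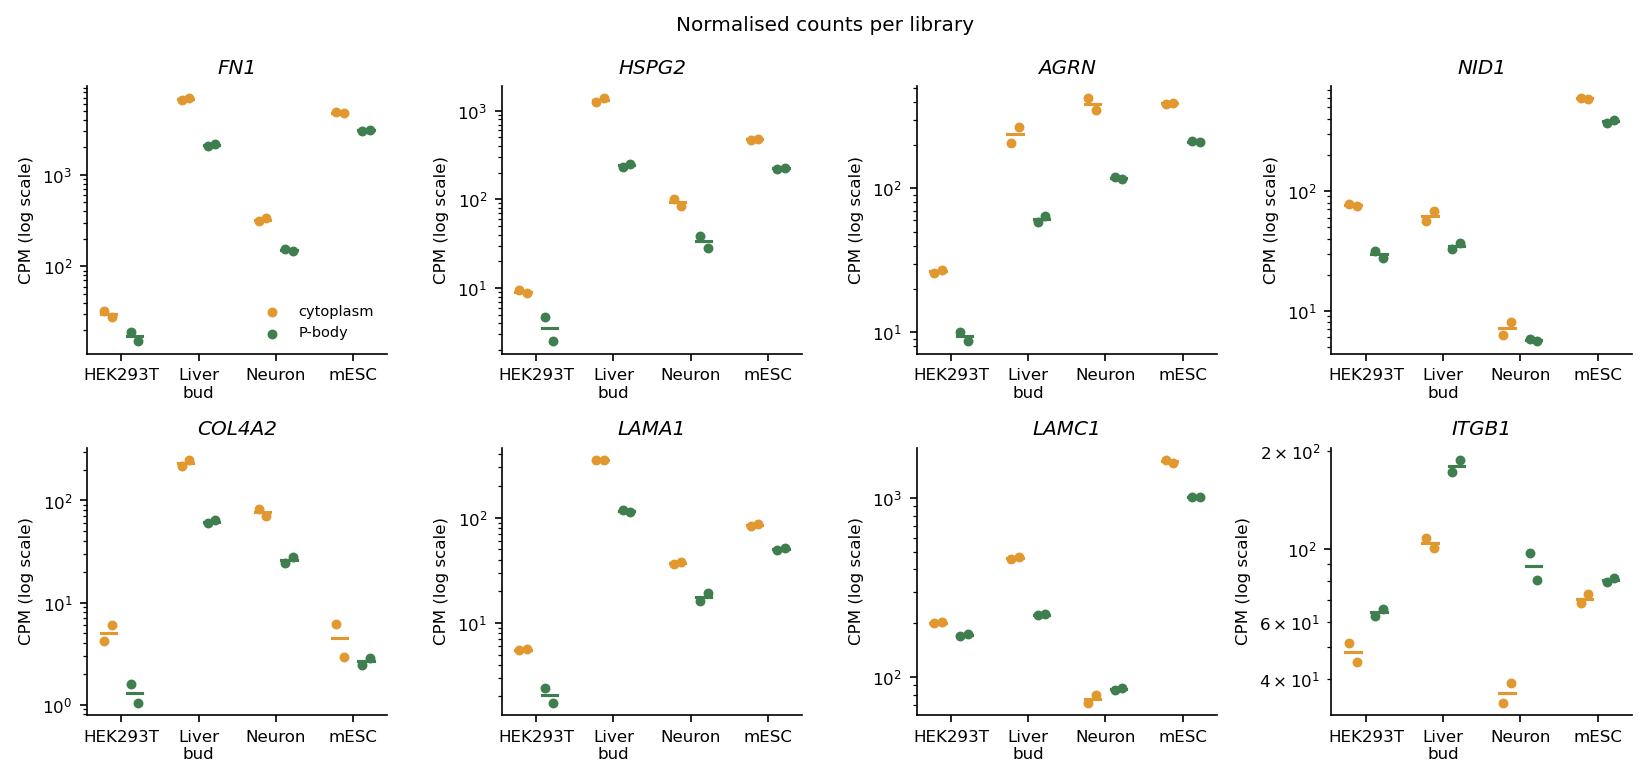
CPM in each library (y axis, log scale) by cell type (x axis) for 8 members, with cytoplasm in orange, P-bodies in green and a bar at the mean of 2 libraries. Mouse genes are plotted under their human symbols. For FN1, HSPG2, AGRN, NID1 and LAMA1 every P-body point lies below every cytoplasm point of its cell type, and for ITGB1 every P-body point lies above.

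Collagens of basement membranes and networks were depleted as a block in liver bud progenitors, where 8 of the 9 above the floor were called (all genes 24.6%). The family median was -1.77 on the log2 scale, the lowest of any family there. COL4A1 and COL4A2 encode the chains of the main collagen IV trimer. COL4A1 had 94.3 and 87.1 CPM in P-bodies and 281 and 277 in cytoplasm, and COL4A2 had 59.9 and 64.2 against 217 and 251 CPM. Both gaps were several times the replicate spread, at 3.08-fold (log2 -1.62 ± 0.07, edgeR adjusted p = 4.33e-30) and 3.77-fold (log2 -1.91 ± 0.08, edgeR adjusted p = 1.77e-31). The annotated spans of the 2 genes overlap at their starts on opposite strands, and counting is not stated to use strand, so reads from that overlap cannot be assigned.

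Among the remaining network collagens of liver bud progenitors, COL4A5 and COL4A6, chains of a second collagen IV trimer, were 3.03-fold and 3.39-fold lower in P-bodies. COL18A1, whose product releases endostatin, had 24.6 and 20.4 CPM against 70.6 and 89.8 CPM, 3.57-fold lower (log2 -1.84 ± 0.12). COL10A1, a network collagen known from hypertrophic cartilage, was scarce, with 0.897 and 1.35 CPM against 9.81 and 7.21 CPM. COL7A1, the anchoring fibril collagen, was the member of this family that was not called (log2 -0.65 ± 0.49).

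In neurons 2 of 7 network collagens were depleted (28.6%, all genes 21.1%). COL4A2 had 24.6 and 27.7 CPM in P-bodies and 83.3 and 70.4 in cytoplasm (2.94-fold, log2 -1.55 ± 0.16, edgeR adjusted p = 8.91e-06). COL4A1 had 6.51 and 13.7 against 23.4 and 23.2 CPM (2.3-fold, log2 -1.2 ± 0.32), and was no longer called with the GC and length offset (log2 -0.75, edgeR adjusted p = 0.146). The 5 not called included COL18A1, COL4A5 and COL4A6, at log2 ratios of -1.88 ± 0.82, -1.82 ± 0.66 and -1.1 ± 0.82, whose P-body libraries all lay below the cytoplasm libraries.

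HEK293T and mESC expressed few network collagens. In HEK293T 3 of 5 were depleted (60%, all genes 38%). COL4A2 had 1.58 and 1.04 CPM against 4.18 and 5.96 CPM there (3.87-fold, log2 -1.96 ± 0.33). COL4A1 had 2.67 and 2.38 against 4.5 and 3.92 CPM (log2 -0.74 ± 0.3, edgeR adjusted p = 0.0379), and this call was lost by DESeq2 (log2 -0.65, adjusted p = 0.236) and without P-body replicate 1 (log2 -0.82, adjusted p = 0.085), P-body replicate 2 (log2 -0.65, adjusted p = 0.203) or cytoplasm replicate 1 (log2 -0.6, adjusted p = 0.213). In mESC Col18a1 alone of 3 was depleted (all genes 20.2%). It had 48.7 and 52.1 against 80.2 and 83.7 CPM (1.63-fold, log2 -0.7 ± 0.08). Col4a1 and Col4a2 stood at 2.9 and 3.59 CPM on average and were not called. With the GC and length offset Col18a1 had a log2 ratio of -0.18 and an edgeR adjusted p of 0.0567.

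Fibrillar collagens, the rope-forming kind, were depleted in similar proportion in all 4 cell types. This held for 3 of 4 in HEK293T (all genes 38%), 2 of 3 in mESC (20.2%), 6 of 9 in neurons (21.1%) and 6 of 10 in liver bud progenitors (24.6%). None was enriched. COL5A1, a type V chain that sets fibril diameter, was depleted in each cell type. It had 18.6 and 18.4 CPM in liver bud P-bodies and 72.3 and 91.3 in cytoplasm, a 4.42-fold gap (log2 -2.15 ± 0.12, edgeR adjusted p = 2.46e-25). Its depletion was 3.31-fold in HEK293T, 2.49-fold in neurons and 2.31-fold in mESC. The neuron libraries were less even, with 9.38 and 19 CPM in P-bodies and 37.7 and 33 in cytoplasm. Calls ended with the GC and length offset in neurons (log2 -0.47, adjusted p = 0.312) and mESC (log2 -0.58, adjusted p = 0.137), and in mESC without cytoplasm replicate 1 (log2 -0.89, adjusted p = 0.0529).

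The type I chains COL1A1 and COL1A2, the main collagen of bone and skin, differed in size of depletion in liver bud progenitors. COL1A1 had 33.3 and 38.2 CPM in P-bodies and 119 and 136 in cytoplasm (3.56-fold), and COL1A2 had 21.1 and 21.2 against 45.5 and 39.7 CPM (2.01-fold). In neurons their depletion was 2.39-fold and 2.23-fold. COL3A1, the collagen of vessels and soft tissue, had 8.61 and 13.7 CPM in neuron P-bodies and 38.1 and 38.9 in cytoplasm (3.45-fold, log2 -1.78 ± 0.25, edgeR adjusted p = 0.000113). In liver bud progenitors COL3A1 averaged 1.33 CPM and was not called. COL2A1, the collagen of cartilage, was depleted 3.08-fold in liver bud progenitors and 2.81-fold in neurons. In HEK293T it was 1.45-fold lower (log2 -0.54 ± 0.17, edgeR adjusted p = 0.00818), a call lost by DESeq2 (adjusted p = 0.121), without P-body replicate 1 (log2 -0.48, adjusted p = 0.071) or cytoplasm replicate 1 (log2 -0.46, adjusted p = 0.0734). With the GC and length offset the direction turned (log2 0.1, adjusted p = 0.699).

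COL11A1, the minor fibrillar chain of type XI, showed no such gap in the human cells. Liver bud P-bodies held 22 and 25.1 CPM and cytoplasm 23.1 and 24.5, overlapping values with a log2 ratio of -0.02 ± 0.15. In neurons it had 10.1 and 9.49 against 12.6 and 12.9 CPM and was not called (log2 -0.37 ± 0.29).

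The other collagens form beaded filaments, coat fibrils or span membranes. In liver bud progenitors 11 of 13 were depleted (all genes 24.6%), in HEK293T 2 of 4 (38%), in neurons 2 of 10 (21.1%) and in mESC 1 of 3 (20.2%). COL6A1, a chain of the collagen VI microfibril, had the highest level per kilobase of them in neuron cytoplasm, 21.7 ± 3.33 CPM per kb. It stood at 37.2 and 21.9 CPM in P-bodies and 101 and 81.2 in cytoplasm (3.09-fold, log2 -1.63 ± 0.22, edgeR adjusted p = 7.47e-05). Its depletion was 2.89-fold in liver bud progenitors and 2.42-fold in HEK293T, and mouse Col6a1 was not analysed here. COL12A1, which coats fibrils, had 27.1 and 36.7 CPM against 58.6 and 54.4 CPM in liver bud progenitors (1.77-fold). COL6A3, another collagen VI chain, was called in opposite directions, depleted in liver bud progenitors at 1.12 and 2.49 against 4.25 and 4.3 CPM, and enriched in neurons at 5.52 and 1.29 against 0 and 0.5 CPM. Both calls rested on few counts. The first was lost by DESeq2 (adjusted p = 0.113), without P-body replicate 1 (log2 -0.78, adjusted p = 0.203) or cytoplasm replicate 2 (log2 -1.26, adjusted p = 0.0522), and the second without P-body replicate 1 (log2 2.33, adjusted p = 0.188) or cytoplasm replicate 1 (log2 2.73, adjusted p = 0.162).

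Laminin chains were called in both directions. In liver bud progenitors 7 of 10 were depleted and none enriched (all genes 24.6% and 32.3%). In mESC 6 of 7 were depleted and 1 enriched (all genes 20.2% and 33.8%), and in HEK293T 5 of 9 and 1 (all genes 38% and 32%). In neurons 3 of 11 were depleted and 3 enriched. The neuron shares, 27.3% each way, stand beside 21.1% and 19.9% of all genes, and differences between cell types in these counts were not tested. LAMA1, the alpha chain of the early embryo, and LAMB2, a beta chain found at synapses and in the kidney filter, were depleted in all 4. LAMA1 had 118 and 114 CPM in liver bud P-bodies and 351 and 356 in cytoplasm, a 3.05-fold gap (log2 -1.61 ± 0.07, edgeR adjusted p = 2.16e-31). In neurons it had 16.1 and 19.4 against 36.6 and 37.9 CPM (2.1-fold), in mESC 49.7 and 51.8 against 83.6 and 86.2 CPM (1.67-fold), and in HEK293T 2.4 and 1.74 against 5.54 and 5.62 CPM (2.7-fold).

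LAMA5 encodes the alpha chain widespread in epithelial basement membranes. It was depleted 4.73-fold in liver bud progenitors, from 121 and 146 CPM in cytoplasm to 26.7 and 29.7 in P-bodies (log2 -2.24 ± 0.1, edgeR adjusted p = 2.87e-30), and 2.19-fold in mESC, from 102 and 111 to 46.4 and 50.9 CPM. In neurons the 2 P-body libraries disagreed, at 19.9 and 1.68 CPM, beside 17.4 and 12.7 in cytoplasm, and LAMA5 was not called (log2 -0.49 ± 0.67). LAMB1, the common beta chain, had 67.6 and 77.1 CPM in liver bud P-bodies and 199 and 202 in cytoplasm (2.78-fold). In HEK293T LAMB1 stood at 12.3 and 12.7 against 15.1 and 12.8 CPM and was not called.

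LAMC1 (chr1:183023420-183145592, plus strand) encodes the gamma chain of most laminins and was the member of highest level per kilobase in HEK293T cytoplasm, at 25.5 ± 0.212 CPM per kb. Its ratio differed from cell to cell. Liver bud P-bodies held 223 and 225 CPM and cytoplasm 460 and 468 CPM, a 2.07-fold depletion (log2 -1.05 ± 0.06, edgeR adjusted p = 1.24e-24). In mESC Lamc1 had 1010 and 1010 against 1640 and 1570 CPM (1.59-fold, log2 -0.67 ± 0.04, edgeR adjusted p = 4.51e-14). HEK293T showed a small gap, 171 and 174 against 200 and 203 CPM (1.17-fold, log2 -0.22 ± 0.06, edgeR adjusted p = 0.00206), which DESeq2 did not call (log2 -0.14, adjusted p = 0.108). In neurons the P-body libraries, at 85.1 and 86.9 CPM, lay above the cytoplasm libraries, at 72 and 79.2 CPM, without a call (log2 0.19 ± 0.12, edgeR adjusted p = 0.288).

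LAMA4, an alpha chain of blood vessel and nerve basement membranes, was enriched in neuron P-bodies. Both P-body libraries held 93.4 CPM and the cytoplasm libraries held 53.6 and 57.8 CPM (1.68-fold, log2 0.75 ± 0.13, edgeR adjusted p = 0.000607). In HEK293T the values were 25.8 and 28.6 against 24.7 and 24.9 CPM, and LAMA4 was not called (log2 0.13 ± 0.13). LAMB4 was also enriched in neurons, at 3.2 and 2.08 against 0.567 and 0.2 CPM. DESeq2 did not call it (adjusted p = 0.0608), and the call was also lost without P-body replicate 1 (log2 2.39, adjusted p = 0.0606), cytoplasm replicate 1 (log2 3.63, adjusted p = 0.123) or cytoplasm replicate 2 (log2 2.18, adjusted p = 0.323). In the same neuron libraries 7 endothelial markers summed to 50.6 and 39.5 CPM in P-bodies and 16.7 and 13.2 CPM in cytoplasm, with 0 or 1 of the 7 at 0 in a library, and 12 mesenchyme markers summed to 62.7 and 55.6 against 70 and 63.7 CPM, with 1 to 4 at 0. Their part in the result was not tested.

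LAMA3 encodes the alpha chain of the laminin that anchors epithelia. It was depleted in HEK293T, at 16.4 and 17.2 against 25.5 and 20.5 CPM (1.37-fold, log2 -0.45 ± 0.14), a call lost by DESeq2 (adjusted p = 0.117) and without cytoplasm replicate 1 (log2 -0.25, adjusted p = 0.29). Lama3 was enriched in mESC, at 20.7 and 18.2 against 14.1 and 14 CPM (1.38-fold, log2 0.47 ± 0.15), which was lost by DESeq2 (adjusted p = 0.106), without P-body replicate 1 (log2 0.38, adjusted p = 0.156) and under scaling by library size only (log2 0.07, adjusted p = 0.727).

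Integrin alpha subunits, which select the ligand, had median ratios nearer to equal CPM in both fractions than all members together. Their medians were -0.31 in HEK293T, -0.42 in mESC, 0.04 in neurons and -0.39 in liver bud progenitors. In the same order 3 of 11, 4 of 10, 2 of 11 and 5 of 13 were depleted (27.3%, 40%, 18.2% and 38.5%). Of all genes, 38%, 20.2%, 21.1% and 24.6% were, so the alpha share was below that of all genes in HEK293T and neurons. ITGA3, a laminin receptor subunit, was depleted in all 4. It had 15.8 and 16.8 CPM in liver bud P-bodies and 36 and 28.8 in cytoplasm (1.99-fold, log2 -0.99 ± 0.15, edgeR adjusted p = 9.3e-08), and 22.3 and 21.9 against 30.3 and 31.1 CPM in mESC (1.39-fold). In neurons, at 11 and 11.7 against 20.9 and 20.1 CPM (log2 -0.85 ± 0.25), the call was lost by DESeq2 (adjusted p = 0.071) and without cytoplasm replicate 1 (log2 -0.84, adjusted p = 0.227) or replicate 2 (log2 -0.89, adjusted p = 0.171). In HEK293T, at 2.19 and 2.38 against 3.94 and 5.53 CPM, it was lost by DESeq2 (adjusted p = 0.0685) and without cytoplasm replicate 2 (log2 -0.77, adjusted p = 0.087). The GC and length offset ended the call in each of the 4, with log2 ratios of -0.43 in HEK293T, -0.01 in mESC, -0.01 in neurons and -0.28 in liver bud progenitors.

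ITGA5, which pairs with ITGB1 as the classic fibronectin receptor, had 37.5 and 45.5 CPM in liver bud P-bodies and 83.9 and 81.6 in cytoplasm, a 2-fold depletion (log2 -0.99 ± 0.1, edgeR adjusted p = 1.34e-13). In mESC Itga5 had 112 and 110 against 173 and 161 CPM (1.51-fold, log2 -0.59 ± 0.06, edgeR adjusted p = 5.36e-09). In neurons it had 3.31 and 5.04 against 11 and 9.7 CPM (log2 -1.31 ± 0.39), a call lost by DESeq2 (adjusted p = 0.0599) and without cytoplasm replicate 1 (log2 -1.23, adjusted p = 0.253) or replicate 2 (log2 -1.41, adjusted p = 0.134). ITGAV, the subunit that binds arginine-glycine-aspartate ligands with several beta partners, was depleted in HEK293T at 7.34 and 7.2 against 12.6 and 16.3 CPM (1.99-fold, log2 -0.99 ± 0.18). In liver bud progenitors it was not called, at 68.2 and 65.6 against 81.3 and 72 CPM (log2 -0.19 ± 0.09), and mESC showed a small depletion, 99.9 and 101 against 119 and 117 CPM (1.17-fold).

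ITGA6, a laminin receptor subunit of stem cells and epithelia, had similar CPM in both fractions of the human cells. It had 97.2 and 105 CPM in liver bud P-bodies and 98 and 91.8 in cytoplasm (log2 0.1 ± 0.08), and 25.8 and 20.7 against 21.7 and 23.5 CPM in neurons (log2 0.04 ± 0.22). In mESC Itga6 was depleted 1.24-fold, at 171 and 173 against 218 and 210 CPM (log2 -0.31 ± 0.05, edgeR adjusted p = 1.41e-05). ITGA2, a collagen receptor subunit, was not called in any cell type. It had 9.82 and 5.24 CPM in neuron P-bodies and 0.85 and 3.8 in cytoplasm (log2 1.69 ± 0.63, edgeR adjusted p = 0.0638), 21.5 and 24.1 against 30.2 and 25.9 CPM in liver bud progenitors (log2 -0.29 ± 0.15) and 24.8 and 21.2 against 22.4 and 23.1 CPM in HEK293T.

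Enriched alpha subunits were few and of low level. ITGA4, which binds fibronectin and a vascular adhesion molecule, was enriched in liver bud progenitors at 2.69 and 4.45 against 1.02 and 1.77 CPM, and not by DESeq2 (adjusted p = 0.136) or without P-body replicate 2 (log2 0.92, adjusted p = 0.242) or cytoplasm replicate 1 (log2 1.01, adjusted p = 0.158). The collagen receptor subunit ITGA11 was depleted in liver bud progenitors, at 3.7 and 5.18 against 11.6 and 13.7 CPM (2.84-fold, log2 -1.5 ± 0.25, edgeR adjusted p = 7.9e-07). In neurons it was enriched, at 6.84 and 5.34 against 1.79 and 1 CPM (4.36-fold, log2 2.11 ± 0.57, edgeR adjusted p = 0.0131), and not without cytoplasm replicate 1 (log2 2.58, adjusted p = 0.0526) or replicate 2 (log2 1.74, adjusted p = 0.184). ITGA1, its close relative, was enriched in neurons at 1.65 and 3.26 against 0.283 and 0.4 CPM, and not by DESeq2 (adjusted p = 0.062) or without P-body replicate 2 (log2 2.24, adjusted p = 0.118), cytoplasm replicate 1 (log2 2.57, adjusted p = 0.283) or cytoplasm replicate 2 (log2 3.05, adjusted p = 0.193). Itgam, a leukocyte subunit, was enriched in mESC at 2.07 and 1.9 against 1.06 and 0.414 CPM, and not by DESeq2 (adjusted p = 0.192) or without P-body replicate 1 (log2 1.35, adjusted p = 0.125), P-body replicate 2 (log2 1.5, adjusted p = 0.0725) or cytoplasm replicate 2 (log2 0.89, adjusted p = 0.227).

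ITGB1 (chr10:32887273-33005792, minus strand) was higher in P-bodies in each cell type, and its size of enrichment spanned a wide range. In neurons it had 97.2 and 80.7 CPM in P-bodies and 33.8 and 38.8 in cytoplasm, a 2.45-fold enrichment (log2 1.29 ± 0.15, edgeR adjusted p = 2.78e-05). Liver bud progenitors had 172 and 188 against 108 and 101 CPM (1.72-fold, log2 0.79 ± 0.08, edgeR adjusted p = 2.25e-14). HEK293T had 62.4 and 65.6 against 51.7 and 45.2 CPM (1.32-fold, log2 0.4 ± 0.09, edgeR adjusted p = 0.000248). The gap in mESC was the smallest, 79.1 and 81.5 against 68.3 and 72.8 CPM (1.14-fold, log2 0.19 ± 0.07, edgeR adjusted p = 0.04).

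Enrichment of ITGB1 in neurons and liver bud progenitors kept its call under every alternative run, including the GC and length offset. In HEK293T that offset gave a log2 ratio of -0.16 (adjusted p = 0.129). In mESC the call was lost by DESeq2 (log2 0.18, adjusted p = 0.219) and without P-body replicate 1 (log2 0.21, adjusted p = 0.076), P-body replicate 2 (log2 0.19, adjusted p = 0.106) or cytoplasm replicate 1 (log2 0.14, adjusted p = 0.183), and it turned to depletion under scaling by library size only (log2 -0.22, adjusted p = 0.0129) and under the offset (log2 -0.18, adjusted p = 0.0472).

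The other beta subunits were depleted or not called. ITGB5, which pairs with ITGAV, had 3.22 and 2.44 CPM in HEK293T P-bodies and 7.15 and 8.34 in cytoplasm (2.74-fold, log2 -1.46 ± 0.25, edgeR adjusted p = 1.03e-06), and 28.1 and 30.3 against 41 and 38.3 CPM in liver bud progenitors (1.36-fold, log2 -0.44 ± 0.12). The latter was 0 on the log2 scale with the GC and length offset. In mESC Itgb5 was 1.55-fold lower in P-bodies (log2 -0.64 ± 0.17), a call lost without cytoplasm replicate 1 (log2 -0.46, adjusted p = 0.0577) and with the offset (log2 -0.19, adjusted p = 0.4). ITGB8, which pairs with ITGAV and activates latent TGF-beta, had the highest level per kilobase of the beta subunits in neuron cytoplasm, 11.3 ± 0.694 CPM per kb. Its CPM in neurons were similar in both fractions, at 88.6 and 106 in P-bodies and 97.1 and 106 in cytoplasm (log2 -0.06 ± 0.13). ITGB4, the hemidesmosome subunit, was depleted in neurons, liver bud progenitors and mESC at low to moderate levels. DESeq2 called none of the 3 (adjusted p = 0.0624, 0.0843 and 0.0576). The GC and length offset ended all 3 calls and turned the direction in mESC (log2 -1.11, -0.31 and 0.15).

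Base composition ran with the ratio, among members as among all genes. Spearman's rho between the GC content of the longest transcript and the log2 ratio was -0.6 over 41 members in HEK293T, -0.4 over 36 in mESC, -0.47 over 58 in neurons and -0.36 over 66 in liver bud progenitors. Over all genes rho was -0.54, -0.58, -0.5 and -0.59. These are descriptions across genes measured in the same 4 libraries, and genes are not independent replicates. The longest transcript is not always the coding mRNA. For human FN1 it had 42.2% GC over 9171 bases, beside 51.5% over the 7431 bases of coding sequence. For COL1A2 the GC content was 41.7% beside 58.8%. The GC content, length, offset results and levels per kilobase of both genes can therefore be off, and other members were not checked for this. With GC content and length of the longest transcript entered as an offset, 36 members were called depleted in liver bud progenitors (54.5%, all genes 16.8%), 21 in HEK293T (51.2%, all genes 34.8%), 15 in mESC (41.7%, all genes 12.7%) and 12 in neurons (20.7%, all genes 16.2%). Of these, 32, 18, 14 and 10 were among the members depleted without the offset. Medians moved to -0.7, -0.53, -0.22 and -0.39 in the same order.

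Whole coding sequences of ITGAV, LAMC1 and HSPG2 keep the order of the stretches printed above. ITGB1 has 41.4% GC in its coding sequence, ITGAV 44.9%, LAMC1 51.6%, COL4A2 63.2%, HSPG2 64.6% and AGRN 68.5%. Over members, rho between coding GC and the log2 ratio was -0.63 in HEK293T, -0.54 in mESC, -0.49 in neurons and -0.48 in liver bud progenitors. With the third codon position alone it was -0.5 in HEK293T and -0.13, -0.07 and -0.14 in the others. The collagens that share low GC at that position are examples: COL3A1 has 27% G or C there and COL1A2 32.4%, both with depletion in neurons, against 56.9% and 58.8% in their whole coding sequences. Glycine codons, which begin with GG, took 28.2% and 27.9% of codons in these 2.

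**Figure D3:**
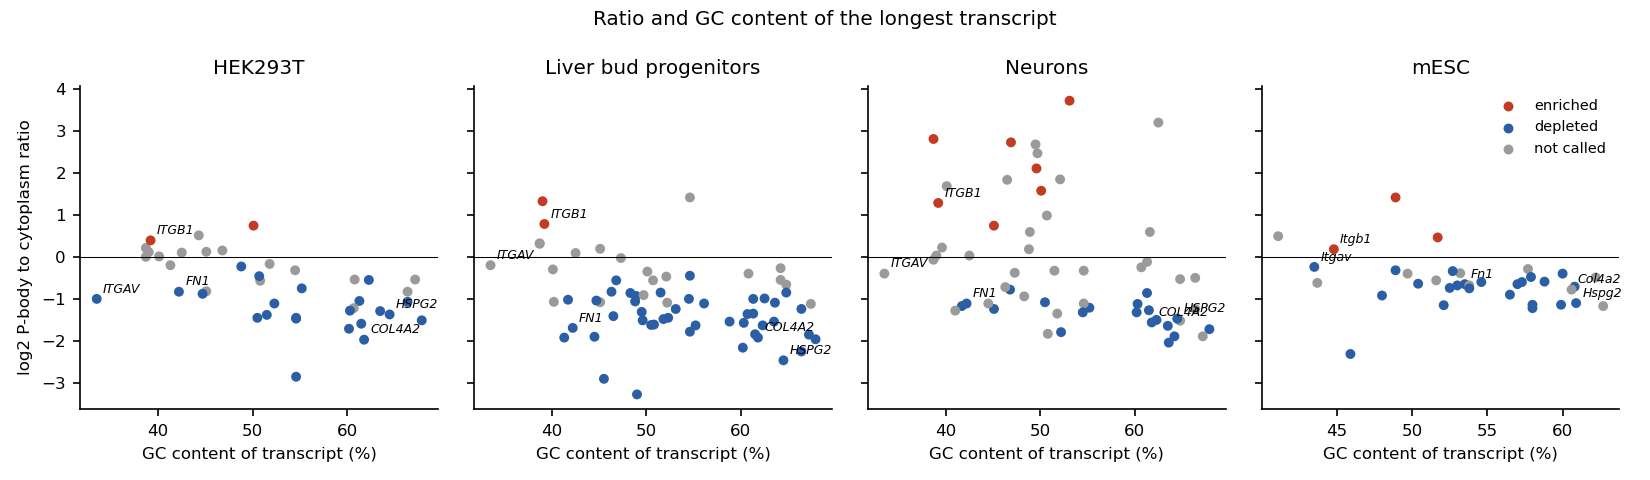
Log2 P-body to cytoplasm ratio (y axis) against the GC content of the longest transcript in percent (x axis) for members with at least 1 CPM in each cell type. Points are genes, coloured by call. The longest transcripts of human FN1 and COL1A2 have far lower GC than their coding sequences. ITGB1 lies at low GC above 0 in each panel and HSPG2 at high GC below 0, with Spearman's rho from -0.6 to -0.36.

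Neurons and liver bud progenitors, both from UCLA4 and both labelled polyA RNA, could be compared directly. The question was whether the P-body to cytoplasm ratio of a member differed between them, tested as an interaction in edgeR over 8 libraries. Of 68 members above the floor, 16 had a higher ratio in neurons (23.5%, where 12.3% of 15081 genes did) and 0 a higher ratio in liver bud progenitors (all genes 12.5%). The median difference, neurons minus liver bud progenitors, was 0.5 on the log2 scale, beside -0.04 for all genes, and 0.21 without neuron P-body replicate 2 (all genes -0.19). The count of 16 depended on single libraries. It fell when any liver bud library or either neuron cytoplasm library was left out. In those fits the share of members with a higher ratio in neurons was nearer to that of all genes. Without either neuron P-body library some members, a smaller share than of all genes, had a higher ratio in liver bud progenitors. With each of the 8 libraries left out in turn, the members' median lay 0.39 to 0.6 above that of all genes. Scaling by library size only gave 29 members, beside 21.2% of all genes.

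LAMC1 had the smallest p, with a difference of 1.23 ± 0.11 (edgeR adjusted p = 2.33e-06), being depleted in liver bud progenitors and not in neurons. HSPG2 differed by 0.98 ± 0.17 (edgeR adjusted p = 0.000877) and FN1 by 0.57 ± 0.09 (edgeR adjusted p = 0.000264). Both were depleted in both cell types, and less so in neurons. LAMA4 differed by 1.82 ± 0.37 (edgeR adjusted p = 0.00261), with a call lost without liver bud cytoplasm replicate 2 (log2 1.36, adjusted p = 0.0778), and LAMA1 by 0.53 ± 0.14 (edgeR adjusted p = 0.0178), lost when any single library other than neuron P-body replicate 1 was left out (0.27 to 0.55). ITGA11 differed by 3.6 ± 0.56 (edgeR adjusted p = 0.000334). ITGB1 had a difference of 0.5 ± 0.17 that missed the threshold (edgeR adjusted p = 0.0524). AGRN and COL4A2 differed by 0.23 ± 0.17 and 0.35 ± 0.17 without a call.

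Calls were also made for NID2, ITGA1, ITGA2, ITGB3, LAMC3, COL4A3, COL4A4, COL6A3 and COL6A6, genes with a mean between 1.26 and 14.9 CPM and differences between 1.99 and 5.22 on the log2 scale. That mean is over both cell types. In neuron libraries alone NID2 averaged 0.76 CPM and COL4A3 0.258 CPM, under the floor, so their neuron ratios rest on very few counts. Each lost its call when at least 3 different libraries were left out in turn.

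**Figure D4:**
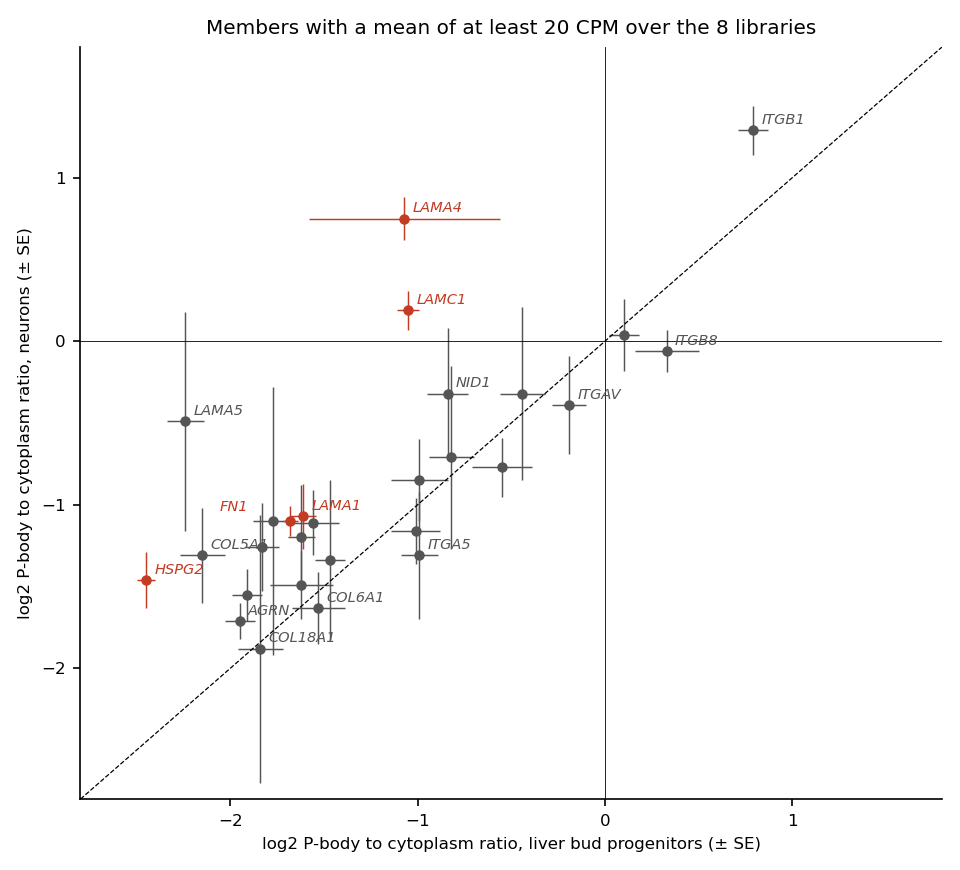
Log2 P-body to cytoplasm ratio with its SE in neurons (y axis) against liver bud progenitors (x axis) for the 28 members with a mean over the 8 libraries of 20 CPM or more. Red points, 5 in number, differed by the interaction test, the dashed line marks equal ratios, and 20 points lie above it. Some grey points are unnamed for legibility.

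In cytoplasm, the same 2 cell types differed far more. Neuron cytoplasm had lower levels of 44 of 68 members (64.7%, where 33% of all genes were higher in liver bud progenitors) and higher levels of 8 (11.8%, all genes 27.7%), with a median difference of -2.03 on the log2 scale beside -0.08 for all genes. In bulk libraries fewer cells of a type and less RNA per cell cannot be told apart. CPM in this comparison are scaled over both cell types, so they differ slightly from those above. FN1 was at 325 and 343 CPM in neuron cytoplasm and at 6410 and 6710 in liver bud cytoplasm, 19.6-fold lower (log2 -4.3 ± 0.07, edgeR adjusted p = 3.84e-16). LAMB1 was 27.3-fold lower in neurons, COL18A1 30-fold, HSPG2 13.5-fold, COL4A1 11.3-fold, LAMA1 8.98-fold and LAMC1 5.81-fold.

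Of the integrin subunits above the floor, 8 of 13 alpha and 4 of 6 beta were lower in neuron cytoplasm (61.5% and 66.7%, all genes 33%). ITGA1 was 24.6-fold lower and ITGA2 11.5-fold, both at low levels in neurons. ITGA5 was 7.55-fold lower, ITGAV 6.09-fold and ITGB1 2.73-fold, at 34.9 and 39.5 CPM in neurons and 106 and 97.6 in liver bud progenitors. The 8 members higher in neurons were LAMA4, COL3A1, ITGB8, ITGBL1, COL6A1, LAMA2, AGRN and COL24A1. LAMA4 had 55.3 and 58.9 CPM in neurons and 1.85 and 3.18 in liver bud progenitors (22.7-fold, log2 4.47 ± 0.21, edgeR adjusted p = 4.56e-11). COL3A1 had 39.3 and 39.6 against 1.42 and 2.08 CPM (22.5-fold). ITGB8 had 100 and 108 against 16.4 and 14.2 CPM (6.8-fold, log2 2.77 ± 0.15, edgeR adjusted p = 1.95e-10). AGRN was 1.72-fold higher in neurons, at 436 and 359 against 201 and 260 CPM, and lower with the GC and length offset (log2 -0.65, adjusted p = 1.67e-06), so its direction depends on that correction. COL6A1 was 2.26-fold higher, a call that the offset ended (log2 0.23, adjusted p = 0.286). ITGBL1 (1.56 and 3.46 against 0.285 and 0.735 CPM) and COL24A1 (8.37 and 9.17 against 3.56 and 2.33 CPM) lost their calls when single libraries were left out, COL24A1 without liver bud cytoplasm replicate 2 (log2 1.3, adjusted p = 0.0795) and ITGBL1 without either liver bud cytoplasm library (log2 1.75 and 3.08), neuron cytoplasm replicate 2 (log2 1.65) or either liver bud P-body library (log2 2.24 in both).

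Genes that make, remodel or read the matrix were followed as fixed lists. Of the collagen processing enzymes and chaperones, 12 of 17 above the floor were depleted in HEK293T, 7 of 17 in mESC, 7 of 18 in neurons and 11 of 20 in liver bud progenitors, with 2, 1, 0 and 2 enriched. Shares of all genes in that order were 38%, 20.2%, 21.1% and 24.6% depleted and 32%, 33.8%, 19.9% and 32.3% enriched. P4HB, a subunit of the prolyl hydroxylase that stabilises collagen helices, was depleted in HEK293T (log2 -1.49 ± 0.07), liver bud progenitors (-0.61 ± 0.08) and mESC (-0.61 ± 0.07). SERPINH1, the collagen chaperone of the endoplasmic reticulum, was depleted in neurons (log2 -1.5 ± 0.24) and liver bud progenitors (-0.72 ± 0.07). Plod2, a lysyl hydroxylase, went the other way in mESC (log2 0.88 ± 0.08).

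Of the other secreted matrix proteins, 4 of 9 were depleted in HEK293T, 5 of 9 in mESC, 7 of 19 in neurons and 12 of 21 in liver bud progenitors, and 1, 1, 0 and 1 were enriched. All genes depleted made up 38%, 20.2%, 21.1% and 24.6% in the same order. FBN1, the microfibril protein fibrillin, was depleted in neurons (log2 -1.65) and HEK293T (log2 -1.04), and Fbn1 in mESC (log2 -0.89). SPARC, a collagen-binding glycoprotein, was depleted in neurons (log2 -1.33 ± 0.11) and mESC (log2 -0.63 ± 0.08).

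Matrix receptors other than integrins had 4, 4, 4 and 5 depleted members of 9, 9, 9 and 8 in HEK293T, liver bud progenitors, neurons and mESC, and 2, 2, 1 and 1 enriched ones. Shares of all genes in this order were 38%, 24.6%, 21.1% and 20.2% depleted and 32%, 32.3%, 19.9% and 33.8% enriched. In HEK293T the median of this list was -0.02 on the log2 scale. DAG1, the dystroglycan that binds laminin and agrin, was depleted in each, with log2 ratios of -1.17, -0.94, -1.13 and -0.8. Integrin adaptors, the proteins that join integrin tails to actin, were depleted in 12 of 19, 12 of 19, 9 of 18 and 10 of 18 cases, with 3, 4, 3 and 3 enriched. FLNA, an actin cross-linker, was depleted in each cell type (log2 -1.34, -1.42, -1.59 and -0.59), and TLN1, which activates integrins, in HEK293T and liver bud progenitors (log2 -1.19 and -1.41). VCL, the actin-linking protein vinculin, was enriched in neurons (log2 1 ± 0.12), and Lims1 and Fermt2 were enriched in mESC (log2 1.16 and 0.7).

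Matrix remodelling genes were of mixed direction. Of those above the floor, 5 were enriched and 3 depleted of 9 in HEK293T, 3 and 1 of 11 in mESC, 3 and 2 of 11 in neurons and 4 and 6 of 12 in liver bud progenitors. Shares of all genes in that order were 32%, 33.8%, 19.9% and 32.3% enriched and 38%, 20.2%, 21.1% and 24.6% depleted. Enriched genes of the list included membrane-bound sheddases. ADAM9 was enriched in HEK293T, liver bud progenitors and neurons (log2 0.74, 1.02 and 1.77), ADAM17 in HEK293T and mESC (log2 0.82 and 0.54) and ADAM10 in neurons and mESC (log2 1.05 and 0.44). MMP14, a membrane-bound metalloproteinase, was depleted in liver bud progenitors (log2 -1.36), and TIMP2, an inhibitor of these enzymes, in neurons and HEK293T (log2 -1.27 and -0.97). The difference between lists was not tested.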

How the data were processed

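P-body and cytoplasm RNA was counted per gene in 4 cell types, 2 libraries per fraction (16 libraries). The authors deposited raw counts, as whole numbers for each gene symbol. Per the study's methods, snapTotal-seq reads went through nf-core RNA-seq with salmon on hg38 or mm10 and the refGene annotation. Another aligner and counter are described for Smart-seq, and which of them made the polyA columns is not given in the sources used here. Deposited tables of fold changes and adjusted p-values from DESeq2 hold the authors' own comparisons and were not used.

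Groups came from the labels. The members and all gene lists were chosen with earlier results of these data known. Genes counted at least 1 time were tested in edgeR 4.0.16 under R 4.3.3 (quasi-likelihood), TMM scaling, no covariate, two-sided, Benjamini-Hochberg adjustment over the whole table, adjusted p under 0.05 and no minimum fold. The neuron and liver bud comparisons used the 8 libraries of both cell types. CPM are counts scaled to the effective library size. Folds are ratios of mean CPM between groups, while log2 ratios come from the fitted model. Members needed a mean of 1 CPM over all libraries of a comparison. Named were a list of 39 members and, per comparison, the 3 in each direction with the smallest p at a mean of at least 20 CPM; other genes named, including enriched members and calls of the interaction, were chosen after their values were seen. Of 1 member that enters the counts, the own values are not reported here. Other settings were DESeq2 1.42.0, filterByExpr, no filter, scaling by RLE or by library size only, a floor of 5 CPM, a single human fit, a replicate block, an offset for GC content and length of the longest GENCODE transcript, and leaving out each library, where a lone library was assumed to vary like the other groups.

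On simulated counts where 200 genes had a log2 change of 1.5, each run on the genes of its comparison, 100% were recovered in HEK293T, liver bud progenitors, mESC and the cytoplasm comparison, 98% in neurons and 96.5% in the interaction. False calls in these runs numbered 43 (cytoplasm), 26 (interaction), 20 (HEK293T), 19 (neurons), 17 (liver bud progenitors) and 6 (mESC). Except for mESC, their share of all calls was above the 0.05 set as threshold. Same-numbered libraries did not deviate together (Pearson's r over genes between -0.09 and 0.08). A chi-square of replicate counts ranged from 2.15 to 24.8 per gene, above sampling noise. No label states which P-body and cytoplasm libraries share a preparation. Every library therefore counted as its own sample, and a pairing by preparation was not used in the main test.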

Additional observations from a re-analysis of the deposited data

Results flagged for a closer look

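Members whose P-body to cytoplasm ratio differed between neurons and liver bud progenitors, by the interaction test of edgeR over 8 libraries, were flagged as differences between groups under the same contrast. All differences are neurons minus liver bud progenitors on the log2 scale. With a mean of at least 20 CPM these were LAMC1 (1.23 ± 0.11 SE), LAMA4 (1.82 ± 0.37), HSPG2 (0.98 ± 0.17), FN1 (0.57 ± 0.09) and LAMA1 (0.53 ± 0.14). At lower levels they were ITGA11 (3.6 ± 0.56), ITGA1 (2.5 ± 0.69), ITGA2 (1.99 ± 0.58), ITGB3 (3.38 ± 1.04), NID2 (2.96 ± 0.83), LAMC3 (4.16 ± 1.18), COL4A3 (5.22 ± 1.35), COL4A4 (3.98 ± 0.97), COL6A3 (4.95 ± 1.25) and COL6A6 (3.24 ± 0.95). Within the neuron libraries NID2 and COL4A3 were below the floor of 1 CPM. The calls of LAMC1, FN1, HSPG2 and ITGA11 were kept when each of the 8 libraries was left out in turn.

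LAMA3 was flagged because it was called enriched in mESC (log2 ratio 0.47 ± 0.15) and depleted in HEK293T (log2 ratio -0.45 ± 0.14). The fractions did not overlap in either. DESeq2 made neither call, and both depended on single libraries. The difference between these cells was not tested.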

How the results depend on the processing

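Depletion kept its direction in the median of members in all 4 cell types under every alternative. Where a value moved past its limits it was as follows. DESeq2 gave 1 enriched member in HEK293T, 0 in mESC, 4 in neurons and 1 in liver bud progenitors (all genes 31.3%, 27.9%, 19.3% and 25.5%). Library size only gave medians of -0.46 in neurons, -1.26 in liver bud progenitors, -1.02 in mESC (0 enriched, all genes 21.4%) and -2.28 in cytoplasm. For the interaction the median was 0.86 (29 higher in neurons, all genes 21.2%). This scaling reversed Itgb1 in mESC (-0.22) and COL1A2 in cytoplasm (-0.11). It moved the median of all genes in mESC from 0.04 to -0.36, in neurons from -0.12 to 0.05, in HEK293T from -0.13 to -0.26, among liver bud libraries from 0.05 to -0.14, for the interaction from -0.04 to 0.32 and for cytoplasm from -0.08 to -0.33, and the members' median lay 0.5 to 1.12 below it in the 4 cell types, 0.54 above it in the interaction and 1.95 below it in cytoplasm. The GC and length offset gave medians of -0.7 in liver bud progenitors, -2.36 in cytoplasm and -0.53 in HEK293T (1 enriched, all genes 25.6%). Neurons had -0.39 (12 depleted, all genes 16.2%) and mESC -0.22 (15 depleted and 1 enriched, all genes 12.7% and 32%). The interaction had 0.31 (2 higher in liver bud progenitors, all genes 16.1%). This offset reversed COL2A1 (0.1) and ITGB1 (-0.16) in HEK293T, Itgb1 (-0.18) and Itgb4 (0.15) in mESC and AGRN in cytoplasm (-0.65). filterByExpr gave medians of -1.16 in liver bud progenitors and 0.65 in the interaction. A floor of 5 CPM gave -0.45 in HEK293T (12 depleted, 1 enriched), -1.27 in liver bud progenitors (1 enriched), -1.07 in neurons (2 enriched), 0.29 in the interaction (9 higher in neurons) and -2.17 in cytoplasm (29 higher in liver bud progenitors). Shares of all genes at the floor of 5 CPM were not computed. A single human fit gave 13 enriched members (all genes 24%) and a median of -0.73 in neurons, and a median of -1.95 in cytoplasm. The replicate number as a block, which the numbers do not support as a pairing, gave a median of -0.77 and 21 depleted members (all genes 24.3%) in neurons.

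Leaving out each library gave 18 to 21 depleted and 1 to 3 enriched members in HEK293T (median -0.81 to -0.65), 19 to 23 and 0 to 2 in mESC (-0.65 to -0.58), 13 to 27 and 2 to 9 in neurons (-0.81 to -0.67) and 39 to 42 and 1 to 2 in liver bud progenitors (-1.17 to -1.06). In the interaction 6 to 21 members were higher in neurons and 0 to 4 in liver bud progenitors (0.21 to 0.59), and in cytoplasm 39 to 44 were higher in liver bud progenitors and 6 to 9 in neurons (-2.24 to -1.92). Members near 1 CPM rest on few counts in each library, since 3 counts stand for 0.167 to 0.471 CPM. The cause of each change was not tested.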
